A study of Mus musculus with 6 samples.

Results

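Resting peritoneal macrophages of mice that lacked 2 microRNA genes were compared with those of wild-type mice, gene by gene. A gene was included where its row was marked OK in both libraries, its symbol was listed once, and its level was at least 2 FPKM in either library (fragments per length of transcript and depth of library). These 10283 genes were taken from 23699 rows. Of the other rows, 308 were not marked OK in a naive library, 712 belonged to symbols listed at more than 1 locus, and 12579 were below the minimum in both libraries. The wild-type (WT) cells and the knockout (KO) cells, of genotype miR-221/222 -/Y, were on the C57Bl/6 background and received no treatment (naive). They were kept in DMEM with serum and antibiotics. The promoter or method of the deletion, the age of the mice, and whether animals were pooled were not stated. The remaining 4 libraries, used here for comparison, were WT and KO cells given 1000 ng/ml lipopolysaccharide (LPS) for 4 h, and tolerized WT and KO cells. Tolerization was a low dose of 10 ng/ml LPS for 15 h, then a wash and 2 h of rest, before the dose of 1000 ng/ml for 4 h.

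MicroRNAs are short RNAs that lower the translation and stability of mRNAs carrying a match to their seed, usually in the 3′ UTR. The miR-221 and miR-222 genes lie next to each other on the X chromosome and are best known for acting on cell cycle inhibitors such as Cdkn1b and on the receptor Kit. Peritoneal macrophages live in the abdominal cavity, clear dead cells and microbes, and answer LPS, a component of the Gram-negative cell wall, with cytokines, chemokines and interferon-stimulated genes.

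The 2 deleted microRNAs are shown because they share their seed, bases 2 to 8, which is in capitals. The sequences and positions are those of RefSeq on build GRCm38.p6, at chrX:19146307-19146329 and chrX:19146901-19146923, both on the minus strand.
mmu-miR-221-3p: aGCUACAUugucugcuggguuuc
mmu-miR-222-3p: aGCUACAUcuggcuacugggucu
Their own host rows, Mir221 and Mir222, were listed at 0 in both naive libraries. This does not check the knockout, because mature microRNAs have no poly-A tail and are lost from such libraries.

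The series speaks of triplicates, but 1 library stood for each group. Hence no difference below has a replicate check, no test was possible, and a difference between these libraries may not be one between genotypes. Whether the libraries came from separate animals is not stated. Read counts were not used here. The deposited intervals, which cover counting error only, had a median half-width of 14.7% in WT and 16.1% in KO at 2 to 5 FPKM, and of 5.33% and 5.97% at 10 FPKM or more. Differences are given as log2((KO + 1)/(WT + 1)) in FPKM, which understates those of low genes, and a gene is called higher or lower where the difference was at least 2-fold on that scale. An exact 0 in these tables need not mean absence, since S100a9 was listed at 0 in all 6 libraries while its partner S100a8 was at 65.2 FPKM in WT naive cells.

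The labelled cell type was checked on 18 general macrophage markers, which all passed the minimum. None was at least 2-fold higher in KO, against 4.00% of all genes. Lyz2, the macrophage lysozyme, was at 45134 FPKM in WT and 35949 in KO. Csf1r, the receptor for the growth factor that maintains macrophages, was at 895 and 722 FPKM, and Emr1, a surface receptor used to recognise macrophages, at 431 and 393.

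Most genes had like levels in the naive libraries, with a tail of differing genes on either side. In all, 411 of 10283 genes (4.00%) were at least 2-fold higher in KO and 328 (3.19%) at least 2-fold lower. The median difference was -0.04, 52.0% of genes lay within 1.2-fold, and the 5th and 95th percentiles were -0.78 and 0.86. At 4-fold the counts were 123 higher and 67 lower, and at 8-fold 38 and 24. Among genes of at least 100 FPKM, 11.1% were higher and 6.20% lower, against 3.09% and 3.11% at 10 to 100 FPKM. The deposited intervals of the libraries did not overlap for 5761 genes (56.0%), including 406 of the higher and 320 of the lower ones, so non-overlap alone separates little here. Of the higher genes 116 were under 2 FPKM in WT, and of the lower genes 89 were under it in KO. Such genes entered through the library in which they were high and had to differ, so counts and medians of lists are descriptions that this minimum raises. Near the thresholds, 302 genes had 2 to 2.5 FPKM against 385 rows at 1.5 to 2, and 81 higher and 75 lower genes lay between 2- and 2.2-fold, with 109 and 121 just outside, at 1.8- to 2-fold. Across genes, which are not independent replicates, the correlation of log2(FPKM + 1) between WT and KO was 0.93 in naive cells, 0.97 in LPS-treated cells and 0.98 in tolerized cells.

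**Figure D1:**
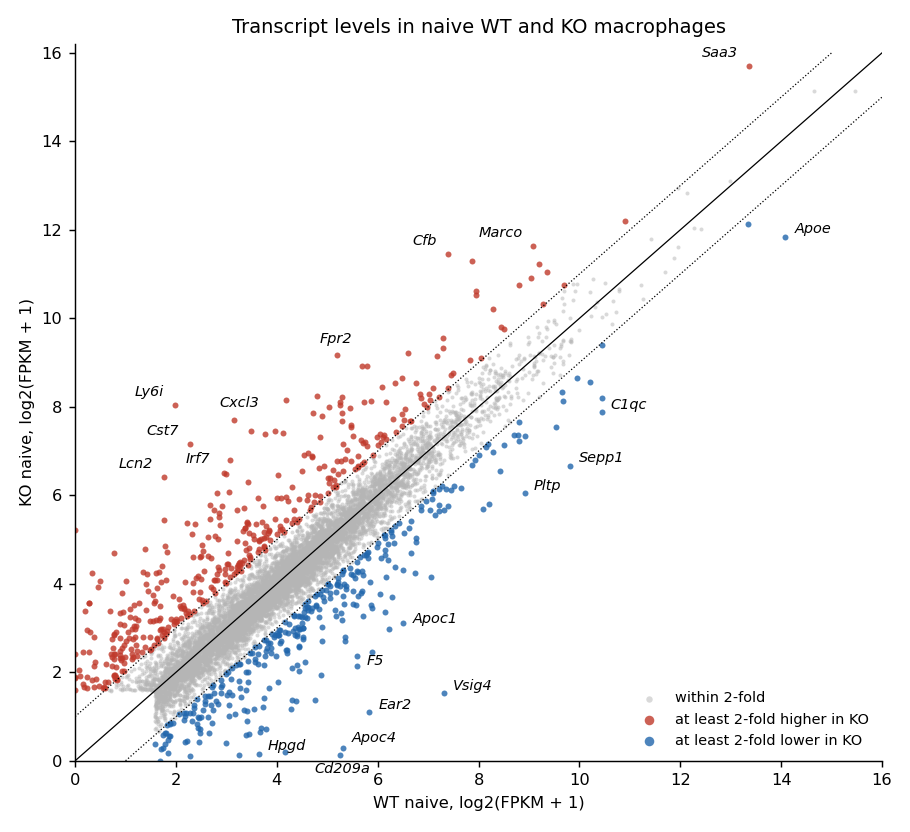
Level of each gene in naive WT cells (x axis) and naive KO cells (y axis), both as log2(FPKM + 1), 1 library each. The solid line marks equal levels and the dotted lines a 2-fold difference. Red points are the genes at least 2-fold higher in KO and blue points those at least 2-fold lower. Small RNA genes are left out. Saa3 stands at the top right of the red points and Vsig4 and Cd209a far below the line.

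Leaving out small RNA genes, some of which differed more, and genes whose intervals overlapped, the largest difference among genes of at least 10 FPKM was that of Ly6i, which encodes a surface protein of the Ly6 family. It was at 2.92 FPKM in WT (interval 2.01 to 3.84) and 261 in KO (252 to 271), a difference of 6.06. Reads can be shared among the similar Ly6 genes, so this value is uncertain. Cst7, which encodes the cysteine protease inhibitor cystatin F, was at 3.86 FPKM in WT and 143 in KO (4.89). Lcn2, the iron-scavenging lipocalin, was at 2.37 and 84.7 FPKM (4.67). In each of these genes WT was near the minimum and KO among the well expressed genes. The gene 1100001G20Rik was listed at 0 in WT and at 36.2 FPKM in KO, so no fold is given. Susd2, a membrane protein gene, was at 0.27 and 18.1 FPKM (3.91). Tnfsf4, which encodes the T cell costimulator OX40 ligand, was at 0.407 and 15.8 FPKM (3.58). The unnamed transcript 9030425E11Rik was at 0.697 and 25 FPKM (3.94).

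Inflammatory cytokine genes were mostly higher in naive KO cells. Of 28 listed, 19 passed the minimum, and 11 of these were at least 2-fold higher and none lower, with a median difference of 1.06 against -0.04 over all genes. Of the 11, 5 were under the minimum in WT and so entered only through the KO library, and with no minimum the median was 0.72. Il1b, which encodes the fever cytokine interleukin-1 beta, was at 10.2 FPKM in WT and 175 in KO (3.98). Its relative Il1a was at 14.52 and 175 FPKM (3.51). Il1rn, which encodes the secreted antagonist of both, was at 31.6 and 254 FPKM (2.97), so the antagonist was higher as well. Tnf, the tumour necrosis factor gene, was at 28.7 FPKM in WT (26.7 to 30.7) and 220 in KO (214 to 226), a difference of 2.89. Csf3, which encodes the growth factor of neutrophils, was at 0.206 and 10.8 FPKM (3.29). Il6 was at 1.25 and 7.32 FPKM (1.89). Il12b and Nos2, a cytokine subunit gene and the inducible nitric oxide synthase gene, did not reach 2 FPKM in either library.

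Chemokine genes followed the same pattern in most members. Of 13 listed CC chemokines 10 passed the minimum, 8 were higher and none lower (median 2.05). Ccl4, a chemokine for monocytes and T cells, was at 12.6 FPKM in WT and 166 in KO (3.61). Ccl5, which attracts T cells, was at 54.0 and 484 FPKM (3.14), and Ccl3, a close relative of Ccl4, at 57.0 and 279 FPKM (2.27). Of 13 listed CXC chemokines 11 passed, with 7 higher and 1 lower (median 1.32). Cxcl3, which attracts neutrophils, was at 7.82 FPKM in WT and 207 in KO (4.56). Cxcl1 and Cxcl2, which bind the same neutrophil receptor, were at 6.50 and 38.2 FPKM in WT and at 52.8 and 231 in KO. The lower member was Cxcl14, a chemokine made in resting tissue, at 37.7 and 9.06 FPKM (-1.94). Ccl24, an eosinophil chemokine, was within 2-fold at 72.4 and 37.4 FPKM (-0.94). Chemokine genes are similar in sequence, so reads can be shared between near copies.

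Several of these genes were neighbours. On mm9, the build of the files, 7 consecutive included genes at chr5:90919740-91334964 were all at least 2-fold higher in KO, namely Afp, Cxcl5, Ppbp, Pf4, Cxcl3, Cxcl1 and Cxcl2, over 415.2 kb. Cxcl5 was the least abundant, at 0.657 and 5.70 FPKM (2.02), and Afp, the fetal serum protein gene, was at 1.29 and 5.97 FPKM (1.61). Pf4, which encodes platelet factor 4 and is also made by macrophages, was the most abundant, at 448 and 1724 FPKM (1.94). Other runs of neighbours on the same side were Ifit2, Ifit3, I830012O16Rik and Ifit1 on chromosome 19, Fpr1 and Fpr2 on chromosome 17, and C1rl, C1ra, C1s and C1rb on chromosome 6, all higher. Lower runs were C1qb, C1qc and C1qa at chr4:136436061-136454759 and Apoc2, Apoc4, Apoc1 and Apoe at chr7:20256928-20284515. These runs are mostly gene families.

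Promoter windows with a match are shown for some of the genes that were higher together. The 250 bases before each start in RefSeq (GRCm38.p6) were searched on both strands for GGANTTTCC, a pattern like the kappaB element bound by NF-kappaB, and for GAAANNGAA, a pattern like the element bound by interferon-activated factors. The patterns can overlap, and a match is not evidence of binding. The capitals mark the matches, in reverse complement where the match is on the other strand. Windows were found for 8309 genes. The kappaB-like pattern was in 1.49% of these, in 7.30% of the genes at least 2-fold higher (23 of 315), in 0.830% of those at least 2-fold lower, and in 1.07% of all 32851 windows. Among chemokine genes with a window it was in 4 of 14 (28.6%), and Pf4 and Ppbp of the same run had no match of either pattern. Of the genes with the largest increases, Cst7, Lcn2, Il1b, Ptges, Fpr2, Irf7 and Ptgs2 had a window but neither pattern. A window of F13a1, a gene lower in KO, had a kappaB-like match. The 3 neighbouring neutrophil chemokine genes each held the same 9 letters, at chr5:90786014-90786052, chr5:90891160-90891198 and chr5:90903788-90903826 on the plus strand.
Cxcl3: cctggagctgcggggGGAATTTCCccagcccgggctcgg
Cxcl1: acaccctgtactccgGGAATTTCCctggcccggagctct
Cxcl2: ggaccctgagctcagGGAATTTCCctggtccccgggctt
The windows begin at -87, -85 and -111 from the start. The interferon-type pattern was in 7.77% of all genes with a window, in 13.7% of those higher, in 12.4% of those lower, and in 16 of 31 interferon-stimulated genes. The windows of Isg15, at chr4:156200836-156200911 on the minus strand, and of Rsad2, at chr12:26456548-26456586 on the minus strand, are examples.
Isg15: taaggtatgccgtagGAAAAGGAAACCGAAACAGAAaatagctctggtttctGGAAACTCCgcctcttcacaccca
Rsad2: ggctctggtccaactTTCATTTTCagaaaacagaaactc
The share of windows with the interferon-type pattern was above that of all genes in the higher and in the lower genes alike.

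Interferon-stimulated genes were higher in KO or within 2-fold. Of 42 listed, 40 passed the minimum, 20 were higher and none lower, with a median of 0.96. Of the 20, 7 were under the minimum in WT and so entered only through the KO library. With no minimum the median was 0.88, and with a minimum of 10 FPKM it was 0.61. Irf7, the factor that amplifies interferon transcription, was at 7.45 FPKM in WT and 110 in KO (3.72). Isg15, a ubiquitin-like modifier, was at 4.19 and 39.7 FPKM (2.97). Ifit3, which encodes an antiviral RNA-binding partner, was at 0.610 and 9.49 FPKM (2.70). Zbp1, a sensor of nucleic acids, was at 8.22 and 49.6 FPKM (2.46), and Rsad2, the antiviral enzyme viperin, at 1.23 and 10.6 FPKM (2.37). All of these were under 10 FPKM in naive WT cells. Stat2 and Irf9, subunits of the factor that carries interferon signals to the nucleus, were at 11.6 and 12.6 FPKM (0.11) and at 23.9 and 22.9 FPKM (-0.06). Of 11 interferon-inducible GTPase genes, which act against intracellular microbes, 3 were higher and none lower (median 0.81), with Gbp6 at 4.07 and 23.2 FPKM and Gbp2 at 43.2 and 192. Members of the Oas, Ifit and Gbp families are near copies of each other, so their single values are uncertain. Of 21 genes of MHC class I presentation 3 were higher, and all 21 differences were above 0 (median 0.62), with the class I heavy chain H2-K1 at 822 and 1727 FPKM (1.07).

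With the minimum of 2 FPKM, the acute phase genes had the largest median difference of the lists described. Of 14 listed 9 passed the minimum, 8 were higher and none lower (median 2.61). Of the 8, 2 were under the minimum in WT and so entered only through the KO library. With no minimum the median was 1.92, below the 2.04 of the CC chemokines. Cfb, which encodes complement factor B, was at 167 FPKM in WT (163 to 170) and 2798 in KO (2782 to 2813), a difference of 4.06. Orm1, a serum glycoprotein gene, was at 1.62 and 26.8 FPKM (3.40). C3, the central complement component, was at 96.3 and 595 FPKM (2.61), and Hp, which encodes the haemoglobin-binding haptoglobin, at 246 and 1468 FPKM (2.57). Saa3, a serum amyloid protein made by macrophages, was the most abundant gene of naive KO cells, at 10567 FPKM in WT and 53305 in KO (2.33). It made up 1.84% of the summed FPKM in WT and 8.39% in KO. FPKM values are relative to the library's total, and the all-gene median was -0.04.

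Enzymes of lipid mediators and of the oxidative response differed in a less uniform way. Of 17 eicosanoid synthesis genes above the minimum 5 were higher and 5 lower. The pair that makes prostaglandin E2 was higher, with the cyclooxygenase Ptgs2 at 2.38 and 42.7 FPKM (3.69) and the terminal synthase Ptges at 17.1 and 283 FPKM (3.97). Hpgd, which inactivates prostaglandins, was at 11.5 and 0.114 FPKM (-3.49), and the prostacyclin synthase Ptgis at 76.5 and 12 FPKM (-2.57). Of 27 oxidative stress and metal genes 9 were higher and 1 lower (median 0.72). Slc7a11, the cystine importer, was at 25.3 and 232 FPKM (3.15), and the metal-binding Mt2 at 5.40 and 43.1 FPKM (2.78). The lower gene was Gpx3, a secreted peroxidase, at 15.4 and 2.45 FPKM (-2.25). Of 15 genes of arginine and nitric oxide metabolism 4 were higher, among them Irg1, which makes itaconate, at 37.0 and 274 FPKM (2.85).

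Receptor genes were found on both sides. None of 22 Toll-like receptor and LPS-sensing genes was higher, and 2 were lower (median -0.15), against 4.00% and 3.19% of all genes, so that the absence of higher genes was near the background. The lower ones were Tlr8, at 91.3 and 34.5 FPKM (-1.38), and Tlr13, at 163 and 69.6 FPKM (-1.22), both endosomal sensors of RNA. Among NF-kappaB subunit and inhibitor genes 3 of 15 were higher, led by the inhibitor Nfkbie at 31.5 and 82.4 FPKM (1.36). Of 14 chemoattractant receptors 3 were higher and 5 lower. Of the 5, 2 were under the minimum in KO and so entered only through the WT library. Fpr2, a receptor for formylated and amyloid peptides, was at 35.7 FPKM in WT and 574 in KO (3.97), and its neighbour Fpr1 at 42.7 and 250 FPKM (2.52). Cx3cr1, the fractalkine receptor, was at 12.2 and 1.31 FPKM (-2.51). C3ar1, the receptor for a fragment of C3, was at 272 and 50.6 FPKM (-2.40). Of 18 C-type lectin receptor genes 3 were higher and 6 lower. Of the 6, 3 were under the minimum in KO and so entered only through the WT library. The lowest of the 6 was Cd209a (-5.12). Clec4e, the receptor Mincle for mycobacterial lipid, was at 232 and 2518 FPKM (3.43), and Clec4n, the fungal sensor Dectin-2, at 246 and 1571 FPKM (2.67).

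**Figure D2:**
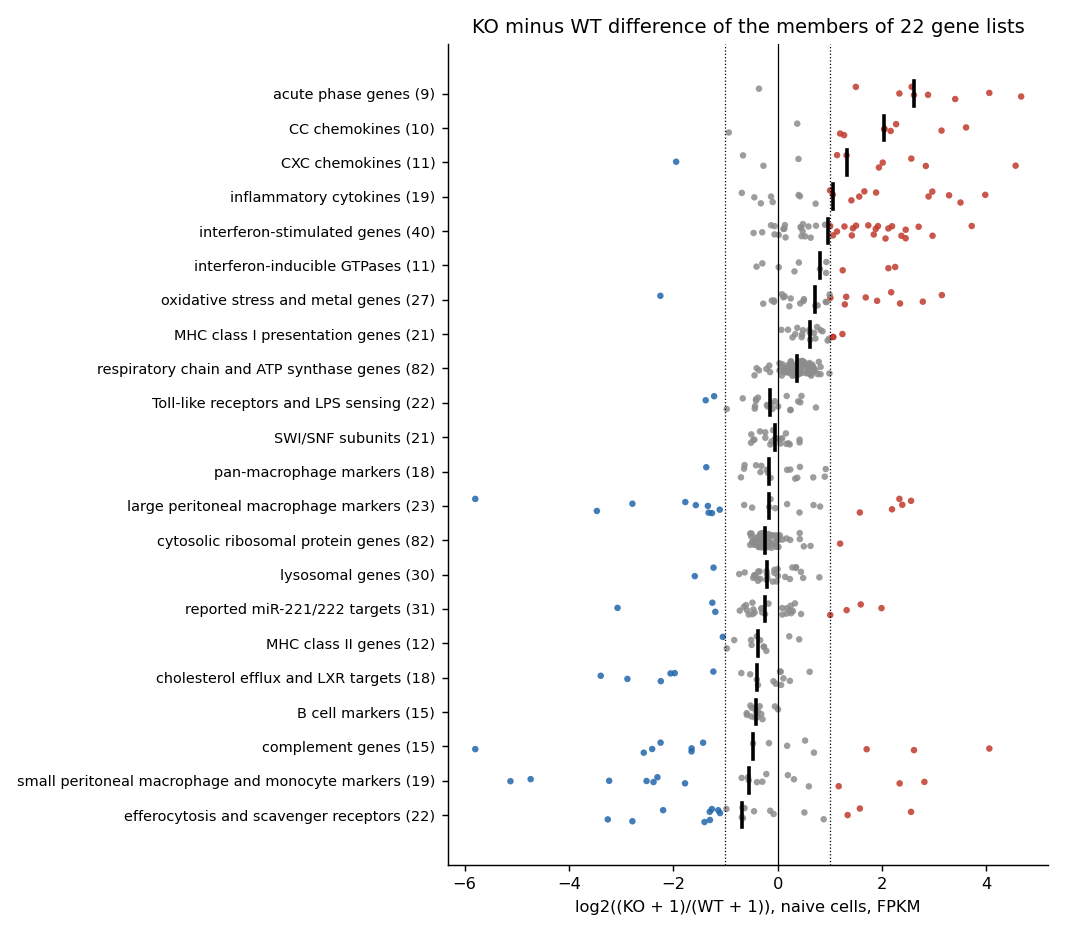
Difference of each included gene of 22 lists between naive KO and naive WT cells, as log2((KO + 1)/(WT + 1)) in FPKM (x axis), with 1 library per genotype. The number after each name is that of included genes, the black bar is their median, and dotted lines mark 2-fold. Red points are at least 2-fold higher in KO and blue points at least 2-fold lower. Acute phase genes lie farthest right, with a median of 2.61, and efferocytosis and scavenger receptors farthest left, at -0.68.

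Genes that mark large peritoneal macrophages, the resident population of the cavity, did not move together. Of 25 listed 23 passed the minimum, with 5 higher and 9 lower (median -0.16). Vsig4, the complement receptor of resident macrophages, was at 158 FPKM in WT (153 to 163) and 1.87 in KO (1.28 to 2.46), the lowest difference of all genes named here, at -5.79. F5, which encodes coagulation factor V, was at 47.4 and 3.39 FPKM (-3.46), and the lipid-associated protein gene Cd5l at 69.6 and 9.26 FPKM (-2.78). Gata6, the transcription factor that specifies this population, was at 13 FPKM in WT (12.1 to 14) and 4.88 in KO (4.27 to 5.49), a difference of -1.26. In contrast, Timd4, a receptor for dying cells that marks long-lived resident cells, was at 35.6 and 108 FPKM (1.58). Marco, a scavenger receptor for bacteria, was at 543 and 3201 FPKM (2.56), and Serpinb2, a protease inhibitor, at 37.9 and 203 FPKM (2.39). In bulk samples, fewer cells of a type and less RNA per cell cannot be told apart.

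Genes of small peritoneal macrophages and monocytes were more often lower. Of 22 listed 19 passed the minimum, 3 were higher and 7 lower (median -0.55). Of the 7, 5 were under the minimum in KO and so entered only through the WT library. With no minimum the median was -0.49. Cd209a, a lectin of monocyte-derived cells, was at 36.9 FPKM in WT and 0.0898 in KO (-5.12). Ear2, an eosinophil-associated ribonuclease gene, was at 55.9 and 1.14 FPKM (-4.73). F13a1, a clotting factor subunit gene of tissue macrophages, was at 47.3 and 4.15 FPKM (-3.23). Ccr2, the receptor that brings monocytes from the blood, was at 9.68 and 1.17 FPKM (-2.30). The higher members were Ly6c2 and Ly6c1, at 3.95 and 1.2 FPKM in WT and 33.8 and 3.95 in KO, and Treml4, at 2.26 and 15.5 FPKM. The Ly6, Ear and Cd209 genes have near copies to which reads can be assigned.

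Uptake, complement and lipid transport genes were more often lower than higher. Over all genes 4.00% were higher and 3.19% lower. Of 27 efferocytosis and scavenger receptor genes 22 passed the minimum, with 3 higher and 9 lower (median -0.68). Itgb5, an integrin subunit used in the uptake of dead cells, was at 74.0 and 6.86 FPKM (-3.25). Pros1, which encodes the bridging molecule protein S, was at 90.2 and 18.9 FPKM (-2.19). Of 15 complement genes 3 were higher and 7 lower (median -0.47). The higher ones were Cfb, C3 and C2. Outside the list, the proteases of the C1 complex and a relative were higher but low, with C1ra at 2.82 and 12.2 FPKM (1.79), C1rb at 0.945 and 3.10 (1.07), C1s at 0.299 and 2.2 (1.30) and C1rl at 1.12 and 9.85 (2.36). All 3 chains of C1q, the recognition unit of the classical pathway, were lower, with C1qc at 1390 and 234 FPKM (-2.57), C1qb at 1396 and 294 (-2.24) and C1qa at 1184 and 377 (-1.65). None of 18 genes of cholesterol efflux and targets of the liver X receptors was higher, and 6 were lower (median -0.39). Apoe, which encodes apolipoprotein E, was at 17362 FPKM in WT and 3678 in KO (-2.24). The phospholipid transfer protein gene Pltp was at 484 and 65.0 FPKM (-2.88), and Apoc1 at 90.0 and 7.68 FPKM (-3.39). Apoc4, which lies in the same cluster, was at 38.7 and 0.228 FPKM (-5.01). Reads of the adjoining Apoc2 and Apoc4 may be hard to separate.

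Coagulation and matrix genes lay on both sides. Of 17 coagulation and fibrinolysis genes 5 were higher and 6 lower (median -0.12). Procr, the endothelial protein C receptor gene, was at 37.3 FPKM in WT and 261 in KO (2.77), and F10, which encodes factor X, at 80.6 and 372 FPKM (2.19). Thbd, which encodes the anticoagulant thrombomodulin, was at 28.3 and 2.85 FPKM (-2.93). Of 17 genes of matrix proteases, inhibitors and matrix 5 were higher and 5 lower (median 0.28). The gelatinase gene Mmp9 was at 6.03 and 65.0 FPKM (3.23), and the membrane-bound protease gene Mmp14 at 38.3 and 299.8 FPKM (2.94). Thbs1, the thrombospondin gene, was at 444 and 149.7 FPKM (-1.56). Of 35 myeloid transcription factors 2 were higher and 6 lower (median -0.01, and 0.03 after rescaling by the median ratio), against 4.00% and 3.19% of all genes, so that the higher count was near the background. Spic, a factor of iron-recycling macrophages, was at 1.98 and 11.3 FPKM (2.04), and Pparg, a lipid-sensing nuclear receptor gene, at 7.12 and 1.8 FPKM (-1.54).

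The remaining genes of the 15 lowest came from several functions. Sepp1, the secreted selenium carrier, was at 901 FPKM in WT and 100 in KO (-3.16). Engase, an enzyme that cuts sugar chains from proteins, was at 58.3 and 4.49 FPKM (-3.43), and Dkk2, an inhibitor of Wnt signalling, at 12.7 and 0.637 FPKM (-3.07). Arhgap19, a GTPase-activating protein gene, was at 18.5 and 1.25 FPKM (-3.12). Mamdc2 was at 17.0 and 0.146 FPKM (-3.97), and the unnamed C530028O21Rik at 26.0 and 1.58 FPKM (-3.39). These were well above the minimum in WT, and most were near it or below it in KO.

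Large sets of housekeeping genes shifted little, each in its own direction. Of 82 cytosolic ribosomal protein genes 1 was at least 2-fold higher and none lower, with a median of -0.25 and 12 of 82 above 0. Of 82 respiratory chain and ATP synthase genes none passed 2-fold, with a median of 0.37 and 76 of 82 above 0. Lysosomal genes had a median of -0.20, and the protease gene Ctsd was at 10448 and 4460 FPKM (-1.23). Of 12 MHC class II genes 1 was lower (median -0.37), the alpha chain H2-Aa at 1395 and 673 FPKM (-1.05). None of 21 SWI/SNF chromatin remodelling subunits passed 2-fold (median -0.05), which in so short a list was near the background. The ATPase subunit Smarca4 was at 17.1 FPKM in WT (16.4 to 17.8) and 18.2 in KO (17.4 to 19.1), a difference of 0.09.

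Markers of other cells were measured beside these results, and their part in them was not tested. Sums below are over all listed markers whose symbol was listed once, including those under the minimum. Of 18 B cell markers 15 passed the minimum and none passed 2-fold, against 4.00% higher and 3.19% lower over all genes. Of the 15, 14 were below 0 (median -0.42). The summed level of the B cell list was 1007 FPKM in WT and 781 in KO. Cd79a, a chain of the B cell receptor, was at 222 and 171 FPKM. The T and NK cell markers above the minimum, 7 of 18, summed to 96.5 and 66.6 FPKM, with Gzma and Gzmb listed at 0 in both libraries. The mast cell and eosinophil markers, of which 8 of 16 passed, summed to 161 and 144 FPKM, with Prg2 at 0. Mesothelial and fibroblast markers were near 0, with 2 of 16 above the minimum and sums of 12.5 FPKM in both. The dendritic cell markers, of which 9 of 15 passed, summed to 328 and 332 FPKM. Of 24 neutrophil genes 9 passed, 4 were higher and 3 lower, and the list summed to 275 and 421 FPKM. S100a8 was at 65.2 and 166 FPKM (1.33), while Ngp and S100a9 were listed at 0 and the granule peroxidase Mpo was at 0.0811 and 0.147. Of 15 erythroid and platelet genes 3 passed, 2 higher and 1 lower, and the list summed to 475 and 1745 FPKM, nearly all of it Pf4. The lower one was the globin gene Hbb-b2, at 21.8 and 5.91 FPKM (-1.72). The erythroid markers Slc4a1 and Car1 were listed at 0 in both libraries, and the platelet integrin gene Itga2b was at 0.161 and 0.141 FPKM. The B cell sum was lower in KO by less than the fold used for a call.

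Genes with a match to the seed of the deleted microRNAs were not higher as a group in naive KO cells. Matches were sought in the longest annotated 3′ UTR of each gene (GENCODE M21, GRCm38), which was found for 9921 genes (96.5%). The searched letters were ATGTAGC, the complement of the seed (7 bases), and ATGTAGCA (8 bases). Without a match, 8839 genes had a median difference of -0.03, with 4.04% higher and 2.96% lower. With a match of at least 7 bases, 1082 genes had a median of -0.12, with 3.23% higher and 3.79% lower. The 355 genes with an 8-base match had a median of -0.15. Genes with a match had longer UTRs, with a median of 2740 bases against 1010. Among UTRs of 1000 to 3000 bases the medians were -0.09 with a match (479 genes) and -0.08 without (3385 genes). Another mature microRNA of RefSeq, mmu-miR-1928, has the same seed.

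The sites of genes known as targets, and of lower genes described above, are printed beside that of a higher gene with the same 8 letters. Capitals mark the match to the seed, with 11 bases of the 3′ UTR on either side.
Cdkn1b: aaaagcattggATGTAGCAttgcgcaatta
Kit, site 1: atgggagatatATGTAGCAagactagaaaa
Kit, site 2: taaatattgaaATGTAGCAataatgtcttt
Bcl2l11, site 2: gaacccagcgtATGTAGCAtttgtattgca
Arhgap19: accatgctggaATGTAGCActatgcaggga
Mki67: aaagtgaaactATGTAGCAaagacatttaa
Cdkn1b, the cell cycle inhibitor p27, was at 36.3 FPKM in WT and 26.5 in KO (-0.44). Kit, with 2 sites, was at 4.86 and 3.96 FPKM (-0.24). Bcl2l11, which encodes the death-promoting protein Bim, was at 23.5 and 9.69 FPKM (-1.19). None of these 3 was higher in KO. The same 8 letters were in a gene on the other side, Mki67, a marker of dividing cells, at 2.5 and 16 FPKM (2.27).

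Of 34 genes reported as targets of these microRNAs in various tissues 31 passed the minimum, 4 were higher and 3 lower, with a median of -0.24. The list was drawn from general knowledge and not from these cells. The higher ones were Socs1, a brake on cytokine signalling, at 1.65 and 9.53 FPKM (1.99), the adhesion molecule gene Icam1 at 49.8 and 152 FPKM (1.59), Socs3 at 13.2 and 34.5 FPKM (1.32), and the DNA repair gene Mgmt at 5.87 and 12.8 FPKM (1.01). The lower ones were Dkk2, Bcl2l11 and Il6ra, which encodes the interleukin-6 receptor and was at 25.1 and 9.97 FPKM (-1.25). No match to the seed was found for any of the 4 higher genes or for Dkk2, whereas Bcl2l11 and Il6ra had matches. Socs1 entered only through the KO library and Dkk2 only through the WT library. Of 15 genes of the microRNA pathway none passed 2-fold (median -0.20), against 4.00% higher and 3.19% lower over all genes, so that this absence was near the background.

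**Figure D3:**
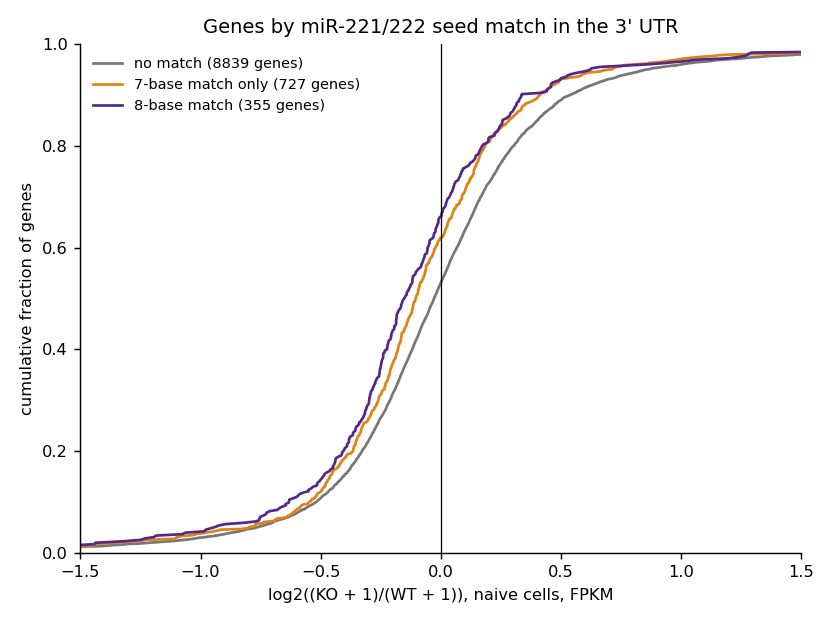
Cumulative fraction of genes (y axis) by difference between naive KO and naive WT cells, log2((KO + 1)/(WT + 1)) in FPKM (x axis), for genes with no seed match in the 3′ UTR (8839), a 7-base match only (727) and an 8-base match (355). The curves of genes with a match lie to the left of the grey curve, with a median of -0.15 for 8-base matches and -0.03 for none, and UTR length differed between these groups.

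Near the deleted genes few transcripts were measured. Within 1 Mb of Mir221 and Mir222 on the X chromosome 2 genes passed the minimum. Kdm6a, a histone demethylase gene at -866.9 kb, was at 14 and 7.59 FPKM (-0.80), and Slc9a7, an ion exchanger gene at 958.8 kb, at 4.24 and 3.16 FPKM (-0.33). In LPS-treated and tolerized cells the differences of Kdm6a were 0.12 and -0.09. Over the 314 included genes of the X chromosome the median was -0.18, with 2.23% higher and 2.87% lower.

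The genes called in naive cells were then read in the libraries of the other conditions, which share no library with the naive pair. With all 6 libraries marked OK, 10247 genes could be followed. In LPS-treated cells 3.04% of them were at least 2-fold higher in KO and 2.49% lower, and in tolerized cells 1.40% and 0.576%. Of 408 genes higher in naive KO cells, 118 (28.9%) were also at least 2-fold higher in LPS-treated KO cells, where they were 37.8% of the 312 higher genes, and 12 were at least 2-fold lower. In tolerized cells 44 (10.8%) were higher, or 30.8% of the 143 higher genes, and 19 were lower. Their median difference was 1.5 in naive, 0.45 in LPS-treated and 0.11 in tolerized cells. Of the 327 genes lower in naive KO cells, 68 (20.8%) were lower in LPS-treated cells, which is 26.7% of the 255 lower genes, and 12 (3.67%) in tolerized cells, with medians of -1.38, -0.35 and 0.08. On the other side, 8 of them were at least 2-fold higher in LPS-treated cells and 12 in tolerized cells, as many as were lower there. The difference was below 0 for 73.7% of them in LPS-treated cells and 44.3% in tolerized cells. Over all genes the median difference was -0.11 and -0.02, so most genes were below 0 in both conditions. The share in tolerized cells was thus under that of all genes. The difference was above 0 for 73.0% of the naive higher genes in LPS-treated cells and 60.3% in tolerized cells, against 39.3% and 47.0% of all genes. The naive values chose these genes, so their naive medians are a description.

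**Figure D4:**
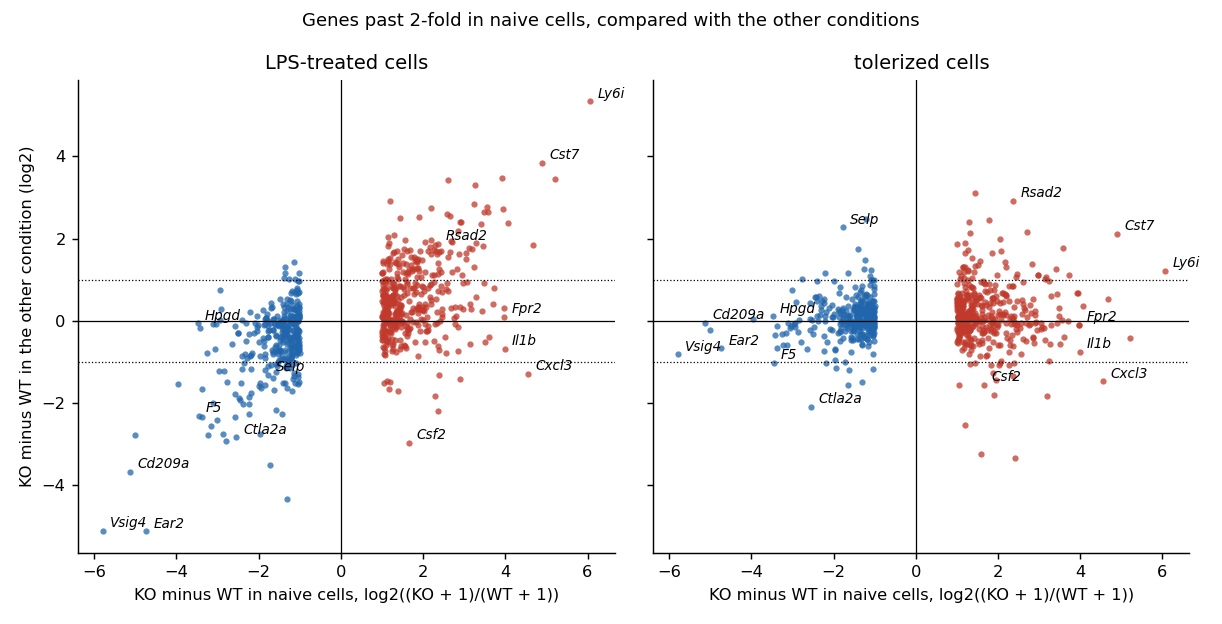
Difference between KO and WT in naive cells (x axis) and in LPS-treated cells (left, y axis) or tolerized cells (right, y axis), as log2((KO + 1)/(WT + 1)) in FPKM, for the genes at least 2-fold higher (red) or lower (blue) in naive KO cells, 1 library per group. Dotted lines mark 2-fold in the other condition. Ly6i and Cst7 were higher and Vsig4 and Ear2 lower in LPS-treated KO cells, while Cxcl3 and Csf2 lay below 0 in both panels.

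A small set kept its side in all 3 conditions at 2-fold, with 22 higher and 8 lower genes, each count including 1 small RNA gene. Ly6i was at 2.92, 3.75 and 62.1 FPKM in naive, LPS-treated and tolerized WT cells and at 261, 192 and 146 in KO cells. Cst7 was at 3.86, 11.2 and 6.88 FPKM in WT and 143, 174 and 33.1 in KO. Tnfsf4 was at 0.407, 3.35 and 5.69 FPKM in WT and 15.8, 26.3 and 21.7 in KO. For these 3 genes the lowest KO library was above the highest WT library. Rsad2, whose level follows interferon, was at 1.23, 1273 and 43.1 FPKM in WT and at 10.6, 4650 and 331.5 in KO. Fn1, the fibronectin gene, was at 804, 676 and 175 FPKM in WT and 321, 216 and 61.7 in KO. F5 was at 47.4, 14 and 7.32 FPKM in WT and 3.39, 2.03 and 3.10 in KO, and Ctla2a, a protease inhibitor gene, at 39.7, 50.2 and 75.1 FPKM in WT and 5.95, 6.18 and 16.7 in KO. The rest of the higher set included Orm1, Orm2, Ly6c2, Ifit2, Ifit3, Cmpk2, Il18bp and Siglec1, and the rest of the lower set Pros1, Cxcl14 and Igfbp4.

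Other genes differed most in the naive pair. Fpr2 was at 35.7, 724 and 616 FPKM in WT and at 574, 770 and 573 in KO. Clec4e was at 232, 3100 and 2815 FPKM in WT and 2518, 3655 and 2699 in KO. In these genes the naive WT library was low and the other 5 libraries were high. Hpgd was at 11.5, 0.172 and 0 FPKM in WT and at 0.114, 0.121 and 0.0795 in KO, so the naive WT library was high and the other 5 were low. Engase was at 58.3, 0.280 and 1.39 FPKM in WT and 4.49, 0.135 and 0.882 in KO. Vsig4 was at 158, 45.2 and 0.998 FPKM in WT and 1.87, 0.337 and 0.131 in KO, and the genotypes differed less in tolerized cells, where both were low.

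**Figure D5:**
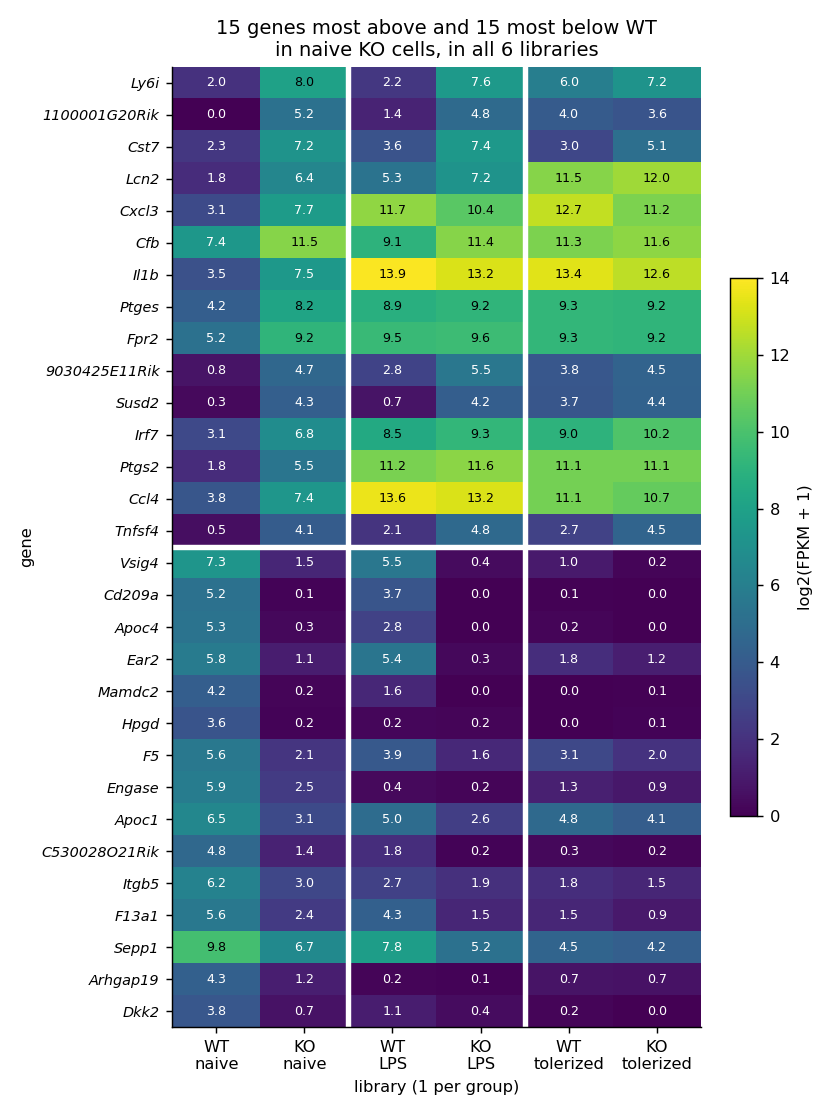
Level of the 15 genes most above and the 15 most below WT in naive KO cells, among genes of at least 10 FPKM with non-overlapping intervals and without small RNA genes, in all 6 libraries, as log2(FPKM + 1), with the value in each cell. The white lines separate conditions and the 2 directions. Ly6i is high in each KO library, whereas Ptgs2 and Ccl4 are highest in the LPS-treated and tolerized libraries of both genotypes.

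Levels in naive KO cells were also set beside those of LPS-treated WT cells. As the LPS response of WT shares the naive WT library with the comparison, only levels are given. Il1b was at 175 FPKM in naive KO cells and 15482 in LPS-treated WT cells. Tnf was at 220 and 13818 FPKM, and Cxcl3 at 207 and 3330. These cytokine genes were thus far below the level that LPS gave in WT. Fpr2, at 574 against 724 FPKM, and Clec4e, at 2518 against 3100, were close to that level. Cfb, at 2798 against 538 FPKM, Saa3, at 53305 against 34694, Marco, at 3201 against 1459, Hp, at 1468 against 76.9, and Ly6i, at 261 against 3.75, were above it.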

How the data were processed

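The labels' protocols state that poly-A mRNA of mouse peritoneal macrophages was sequenced from TruSeq libraries. Per the file headers, the authors gave for every gene of a library its FPKM and the low and high bound of an interval. The submitters' processing notes name bcl2fastq 1.8.4, TopHat, Cufflinks and build mm9. Versions of TopHat and Cufflinks, the annotation, filters and any pooling of triplicates were not given in the sources used here. Depth in reads is unknown here, so precision is given by the deposited intervals.

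From these values log2((KO + 1)/(WT + 1)) was computed with Python 3.11.15, numpy 2.4.6 and pandas 2.3.3, with a pseudocount of 1 FPKM, a minimum of 2 FPKM in either naive library and a rule of size of 2-fold. Groups come from the sample titles. With 1 library per group no test was run. Named genes are the 15 highest and 15 lowest among genes of at least 10 FPKM whose intervals did not overlap, up to 6 members of each list with the largest difference, defining markers, and 12 genes fixed by name (Cdkn1b, Gata6, Il6, Il12b, Irf9, Kit, Mir221, Mir222, Nos2, Smarca4, Stat2 and Tnf). Other genes were named after their values were seen, and a few results are not reported here. The genes, the gene lists and the rules were chosen with earlier results of these data known. Locus starts in the tables count from 0 and were raised by 1. Sequences were matched by symbol to RefSeq and GENCODE M21 on GRCm38, a later build, and no coordinates were moved between builds. Alternatives were other pseudocounts, other minimums, rescaling by the median ratio, leaving out small RNA genes, and non-overlapping intervals.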

Additional observations from a re-analysis of the deposited data

Results flagged for a closer look

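These genes of the described lists were at least 2-fold on one side in naive KO cells and at least 2-fold on the other side in another condition, with 1 library per group, so the difference between conditions was not tested. Cxcl3, a neutrophil chemokine gene, had a difference of 4.56 in naive cells, -1.28 in LPS-treated cells and -1.47 in tolerized cells. Csf2, which encodes a growth factor of granulocytes and macrophages, had 1.66, -2.97 and -1.55 in the same order. Of the neighbours of Cxcl3 on chromosome 5, some did so in tolerized cells, with Cxcl5 at 2.02 in naive and -1.07 in tolerized cells, Pf4 at 1.94 and -1.45, and Ppbp at 1.32 and -1.06, whereas Cxcl1 and Cxcl2 stayed within 2-fold there, at -0.43 and -0.80. Ccl17, a T cell chemokine gene, had 1.2 in naive, -1.49 in LPS-treated and -2.54 in tolerized cells, and Ccl22, which binds the same receptor, had 2.04 in naive and -1.03 in tolerized cells. Serpinb2 had 2.39, -1.33 and -1.02 in the 3 conditions. On the other side, Cd5l was at -2.78 in naive and 1.01 in tolerized cells, Selp, an adhesion receptor gene, at -1.77 and 2.27, and the integrin gene Itga6 at -1.11 in naive and 1.02 in LPS-treated cells.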

How the results depend on the processing

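Neither the counts of genes, the 12 list medians tried nor the 38 single genes tried changed direction under the alternatives run. The 38 were the 15 highest, the 15 lowest and those genes fixed by name that passed the minimum. Single values of the other genes named here were not tried. The median of myeloid transcription factors went from -0.01 to 0.03 with rescaling. Seed, promoter and neighbour results had no alternatives. No paired analysis was possible because each group was 1 library with no replicate numbers, and no library could be left out. With a pseudocount of 5 FPKM, 239 genes passed 2-fold upward and 185 downward, and the list medians were 0.58 (inflammatory cytokines), 0.91 (CXC chemokines), 1.46 (CC chemokines), 0.53 (interferon-stimulated genes), 0.47 (interferon-inducible GTPases), 2.5 (acute phase), 0.60 (oxidative stress and metal) and -0.39 (complement). The higher members then were 5 inflammatory cytokines, 4 CXC chemokines and 13 interferon-stimulated genes. With 0.1 FPKM the medians were 1.61 (inflammatory cytokines), 0.97 (GTPases) and 2.90 (acute phase), and 482 genes passed 2-fold upward and 424 downward. Of these lower genes, 128 and 28 were lower in LPS-treated and tolerized cells too, counted where all 6 libraries were marked OK. With no minimum the medians were 0.72 (inflammatory cytokines), 0.61 (GTPases), 1.92 (acute phase) and -0.17 (complement). With a minimum of 10 FPKM they were 1.63 (CXC chemokines), 0.61 (interferon-stimulated genes), 2.88 (acute phase) and -0.95 (complement), with 6 inflammatory cytokines and 13 interferon-stimulated genes higher. Rescaling gave 437 higher and 298 lower genes and a median of 0.77 for oxidative stress and metal genes. Over genes with non-overlapping intervals the medians were 1.42 (inflammatory cytokines), 1.21 (interferon-stimulated genes), 0.85 (oxidative stress and metal), -0.32 (large peritoneal macrophage markers) and -0.70 (cholesterol efflux). Of 121 genes at least 4-fold higher in naive cells, 54 (44.6%) were higher in LPS-treated and 18 (14.9%) in tolerized KO cells. Of 67 genes at least 4-fold lower, 32 (47.8%) and 6 (8.96%) were lower there. The shares over all genes were 3.04%, 1.40%, 2.49% and 0.576% in the same order. Of 223 values of the 38 single genes under alternatives 168 stayed within the interval and 55 moved, mostly low genes under another pseudocount.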

Other observations

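Outside the lists, 3 genes of cell surface enzymes were chosen after their values were seen, with no count of related genes. Nt5e, which encodes CD73 and makes adenosine, was at 39.8 FPKM in WT and 5.52 in KO (-2.65). Entpd1, which encodes CD39 and acts before it, was at 57.5 and 10.5 FPKM (-2.35), and Enpp1, another ectonucleotidase gene, at 28.8 and 5.57 FPKM (-2.18). In LPS-treated WT cells the same genes were at 1.53, 8.13 and 3.64 FPKM, so naive WT cells held the highest level of each.

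Among signalling genes outside the lists, Hgf, the hepatocyte growth factor gene, was at 19.8 FPKM in WT and 1.55 in KO (-3.03), and Inhba, which encodes the activin A subunit, at 0.216 and 10.8 FPKM (3.27). Acsl1, a fatty acid activating enzyme gene, was at 26.8 and 302 FPKM (3.45). Of 15 cell cycle genes above the minimum 3 were higher and none lower (median -0.12), with Mki67 as the largest difference, so its value was not shared by the list. Among costimulatory and checkpoint genes 4 of 19 were higher and 2 lower, and Cd274, which encodes PD-L1, was at 33.4 and 94.6 FPKM (1.47).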
